A study of Mus musculus with 9 samples.

Results

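The 33 genes described here encode the machinery that carries new secretory proteins into the endoplasmic reticulum (ER) and makes their first modifications. They were chosen by name and role, with earlier results of these data known, and are 33 of the 46958 genes of the deposited count table. All 33 passed the filter on low counts, which left 14199 genes for the tests. A protein bound for secretion carries a signal sequence that the signal recognition particle (SRP) binds as it leaves the ribosome. The SRP receptor then docks the ribosome on the Sec61 channel of the ER membrane, where signal peptidase cuts off the signal sequence and the oligosaccharyltransferase (OST) attaches sugar chains to asparagine residues. Plasma cells, the antibody-secreting cells of the B lineage, pass large amounts of immunoglobulin through this route, and the heavy chain carries such a sugar chain.

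RNA was sequenced from CD138-positive cells of mouse spleen, CD138 being a surface protein of plasma cells. The mice were 3 months old, had not been immunized and shared a mixed C57/BL6, 129/SV and BALB/c background. The 3 genotypes were WT, DH-LMP2A and kFRA, with 3 libraries each and 1 mouse behind each library. The labels tie kFRA to light chain deposition disease (LCDD), a disorder in which a monoclonal light chain is deposited in tissue, and describe neither the kFRA nor the DH-LMP2A allele further. The cells were isolated with beads at a purity above 80%, per the series text, which leaves room for other cells.

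Total counts lay between 15449026 and 21558128 per library, at which 3 counts equal 0.139 to 0.194 CPM without a scaling factor. CPM is a gene's count relative to its library's total, and all other CPM values were adjusted with edgeR's TMM factors. Fold changes and adjusted p-values are from edgeR's quasi-likelihood test with Benjamini-Hochberg adjustment over all 14199 genes, 0.05 being the threshold. Constant-region heavy chain genes took 21.9% to 27.2% of the counts in WT and 0.88% to 1.16% in the other 2 genotypes, and Igkc took 26.4% to 42.2% in kFRA against 9.47% to 16.1% elsewhere. Each of the 8 plasma cell markers was detected in every library, and their summed level was 34150 to 47160 CPM in DH-LMP2A, 20400 to 32060 CPM in kFRA and 18890 to 24140 CPM in WT. Most of that sum was Jchain (mean of 30965 CPM in DH-LMP2A, 21118 in kFRA and 17825 in WT), and another of the markers, Tnfrsf17, went the other way, being 2.24-fold lower in DH-LMP2A (adjusted p = 0.0159, edgeR) and 3.22-fold lower in kFRA (adjusted p = 0.00253) than in WT. The other 7 had positive fold changes against WT in both genotypes. Mzb1 was 3.49-fold higher in DH-LMP2A (adjusted p = 0.0021, edgeR) and 2.33-fold higher in kFRA (adjusted p = 0.0107). Slamf7 also passed as higher in both, and Prdm1 in DH-LMP2A alone. Of the other cell types, 8 myeloid markers summed to 754 to 2189 CPM in DH-LMP2A, 1555 to 2247 CPM in kFRA and 2731 to 4642 CPM in WT, and 7 erythroid markers to 2565 to 13640, 1167 to 2806 and 39.2 to 340.3 CPM. The 8 B cell markers summed to 442 to 606 CPM in DH-LMP2A, 246 to 346 CPM in kFRA and 364 to 674 CPM in WT, kFRA lying below all other libraries. By edgeR's test 4 of them were lower in kFRA than in WT, where 11.1% of all genes were. In DH-LMP2A the markers went both ways. Ms4a1 (2.29-fold) and Cr2 (2.19-fold) were higher than in WT, where 5.07% of all genes were. Cd22 was lower (6.86-fold), where 7.3% of all genes were, and the other 5 did not pass. The 8 T cell markers summed to 104 to 149 CPM in DH-LMP2A, 76.8 to 90.8 CPM in kFRA and 88.8 to 150.6 CPM in WT. Most of that sum was Cd28 (means of 73.0, 47.2 and 48.7 CPM in that order) and Cd4 (27.9, 22.4 and 44.8 CPM). Cd3g, the highest of the Cd3 genes, averaged 4.54, 2.75 and 3.67 CPM. kFRA replicate 2 stood apart from the other kFRA libraries. Its immunoglobulin share was the lowest of the 3 (29.2%, against up to 45.4%), its plasma cell marker sum was the lowest (20400 CPM), and its sum of 8 pancreatic acinar markers was 1944 CPM, where WT libraries had 23.2 to 108.4 CPM and DH-LMP2A libraries 238 to 1096 CPM. Counts and fold changes that rest on it are given with and without it.

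The promoters of 24 of the 33 genes had an entry in the RefSeq table of GRCm38.p6 (250 bases before to 50 after the start). The 4 shown here include an OST subunit and a signal peptidase subunit that were higher in both DH-LMP2A and kFRA than in WT. Among the genes of their complexes with an entry, these alone held a motif searched. The others are the gene with the largest fold change between DH-LMP2A and WT and the gene that went the other way. The 4 are Krtcap2 at chr3:89246223-89246522 (plus strand, the second of its start sites in the table), Spcs1 at chr14:31001617-31001916 (minus strand), Ddost at chr4:138304488-138304787 (plus strand) and Stt3b at chr9:115310419-115310718 (minus strand). Capitals mark the motifs searched on both strands, which are the ER stress elements ERSE (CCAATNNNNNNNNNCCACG) and ERSE-II (ATTGGNCCACG) and the core ACGTGG of the unfolded protein response element, here read on the other strand.
Krtcap2: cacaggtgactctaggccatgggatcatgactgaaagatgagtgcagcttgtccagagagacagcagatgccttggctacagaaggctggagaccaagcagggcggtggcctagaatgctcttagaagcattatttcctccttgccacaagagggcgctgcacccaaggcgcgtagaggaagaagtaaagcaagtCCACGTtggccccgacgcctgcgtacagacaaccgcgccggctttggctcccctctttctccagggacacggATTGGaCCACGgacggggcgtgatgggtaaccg
Spcs1: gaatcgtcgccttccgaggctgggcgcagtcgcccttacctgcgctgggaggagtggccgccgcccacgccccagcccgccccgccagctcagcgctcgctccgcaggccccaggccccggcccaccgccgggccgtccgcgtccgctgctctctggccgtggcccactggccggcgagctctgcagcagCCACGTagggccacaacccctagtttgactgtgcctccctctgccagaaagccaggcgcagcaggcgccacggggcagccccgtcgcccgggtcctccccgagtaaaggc
Ddost: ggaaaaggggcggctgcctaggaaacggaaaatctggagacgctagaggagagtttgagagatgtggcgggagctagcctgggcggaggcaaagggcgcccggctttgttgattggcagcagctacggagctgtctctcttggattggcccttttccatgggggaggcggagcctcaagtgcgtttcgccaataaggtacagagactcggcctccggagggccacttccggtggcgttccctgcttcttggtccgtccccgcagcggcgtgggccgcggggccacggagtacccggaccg
Stt3b: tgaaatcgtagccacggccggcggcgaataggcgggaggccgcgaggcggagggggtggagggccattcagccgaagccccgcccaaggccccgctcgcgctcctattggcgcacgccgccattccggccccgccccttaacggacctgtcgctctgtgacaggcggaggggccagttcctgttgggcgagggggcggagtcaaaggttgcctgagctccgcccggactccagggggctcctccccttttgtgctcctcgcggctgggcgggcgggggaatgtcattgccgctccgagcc
ERSE-II was found in 1 of the 24 genes, Krtcap2, at 17 to 27 bases after the start, which is 4.17% of them against 0.0444% of the 27025 genes in the table. The core was found in 6 of the 24 genes (Krtcap2, Sec63, Spcs1, Srprb, Ssr1 and Ssr3), which is 25% of them against 9.4% of all genes in the table. In Krtcap2 it lay 55 to 50 bases before the start and in Spcs1 60 to 55 bases before it. ERSE was found in 0 of the 24 genes and in 0.137% of all genes in the table, and neither Ddost nor Stt3b held any of the 3 motifs in these windows. Of the genes with the core, Krtcap2 and Spcs1 passed in a comparison with all libraries, and Sec63, Srprb, Ssr1 and Ssr3 passed in none. Rpn2, Dad1, Sec11a and Srp9, which were higher than in WT in at least 1 comparison, held none of the 3 motifs. The median GC content of the 26 promoters of the 24 genes was 59.3%, against 52.7% over all promoters. The matches describe letters in a window and not binding.

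WT libraries held the lowest level of most of these genes. The WT mean was the lowest of the 3 genotype means in 29 of 33 genes (87.9%, against 33.9% of all genes tested), and it was the highest in Stt3b alone (3.03%, against 37.3%). The highest mean was that of kFRA in 17 genes (51.5%, against 33.4% of all genes) and that of DH-LMP2A in 15 (45.5%, against 29.3%). Together the 33 genes took 1.28%, 1.04% and 1.07% of the counts of the DH-LMP2A libraries, 0.917%, 0.986% and 0.848% of the kFRA libraries and 0.542%, 0.530% and 0.602% of the WT libraries. The 3 genotypes did not overlap, and each pair gave an exact 2-sided permutation p of 0.1, the smallest possible for 3 against 3 libraries (0.133 after adjustment over the 12 such tests). Outside the immunoglobulin genes the share was 1.43% to 1.76% in DH-LMP2A, 1.39% to 1.64% in kFRA and 0.960% to 1.35% in WT. In RNA from a mixture of cells, fewer cells of a type and less RNA per cell cannot be told apart, and this holds for every level below.

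**Figure D1:**
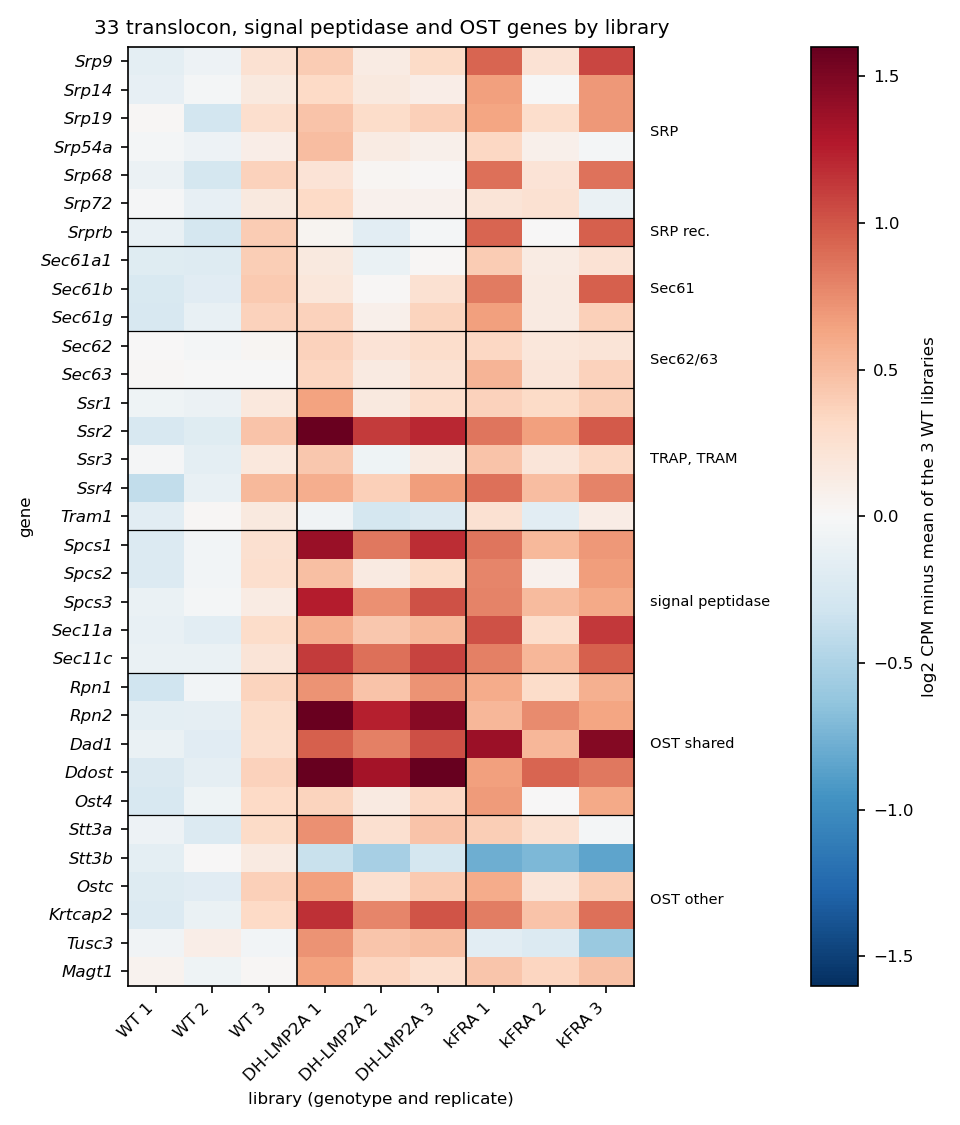
Log2 CPM of the 33 genes (rows, grouped by complex) in the 9 libraries (columns), each minus the mean of the 3 WT libraries. Rpn2, Ddost, Ssr2 and the signal peptidase genes Spcs1, Spcs3 and Sec11c stand highest in the DH-LMP2A columns, Stt3b is below WT in every column of the other genotypes, and kFRA replicate 2 is paler than its neighbours in many rows.

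In DH-LMP2A cells 8 of the 33 genes were higher than in WT (24.2%, against 5.07% of all genes tested), and they belong to 3 complexes. They were Rpn2, Ddost and Dad1 of the OST core, Krtcap2 of an OST form, Spcs1, Spcs3 and Sec11c of signal peptidase, and Ssr2 of the translocon-associated protein (TRAP) complex. No gene was lower by edgeR's quasi-likelihood test, where 7.3% of all genes were, although 1 (Stt3b) was lower at an unadjusted p under 0.05, where 15.7% of all genes were, and passed with DESeq2's Wald test. Over the 33 genes the median log2 fold change was 0.36, and over all genes tested it was -0.01. The libraries of the groups did not overlap in 15 genes that were higher in DH-LMP2A (17.5% of all genes did so in that direction) and in 1 that was lower (19.1% of all genes).

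In kFRA cells 10 genes were higher than in WT (30.3%, against 6.68% of all genes tested) and 1, Stt3b, was lower (11.1% of all genes were). The 10 were Srp9, Ssr2, Spcs1, Spcs3, Sec11a, Sec11c, Rpn2, Ddost, Dad1 and Krtcap2. Over the 33 genes the median log2 fold change was 0.48, and over all genes tested it was -0.04. Libraries did not overlap in 14 genes that were higher in kFRA (14.2% of all genes) and in 2, Stt3b and Tusc3, that were lower (20.2% of all genes). This comparison and the one before use the same 3 WT libraries, so the 2 lists are not independent of each other.

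**Figure D2:**
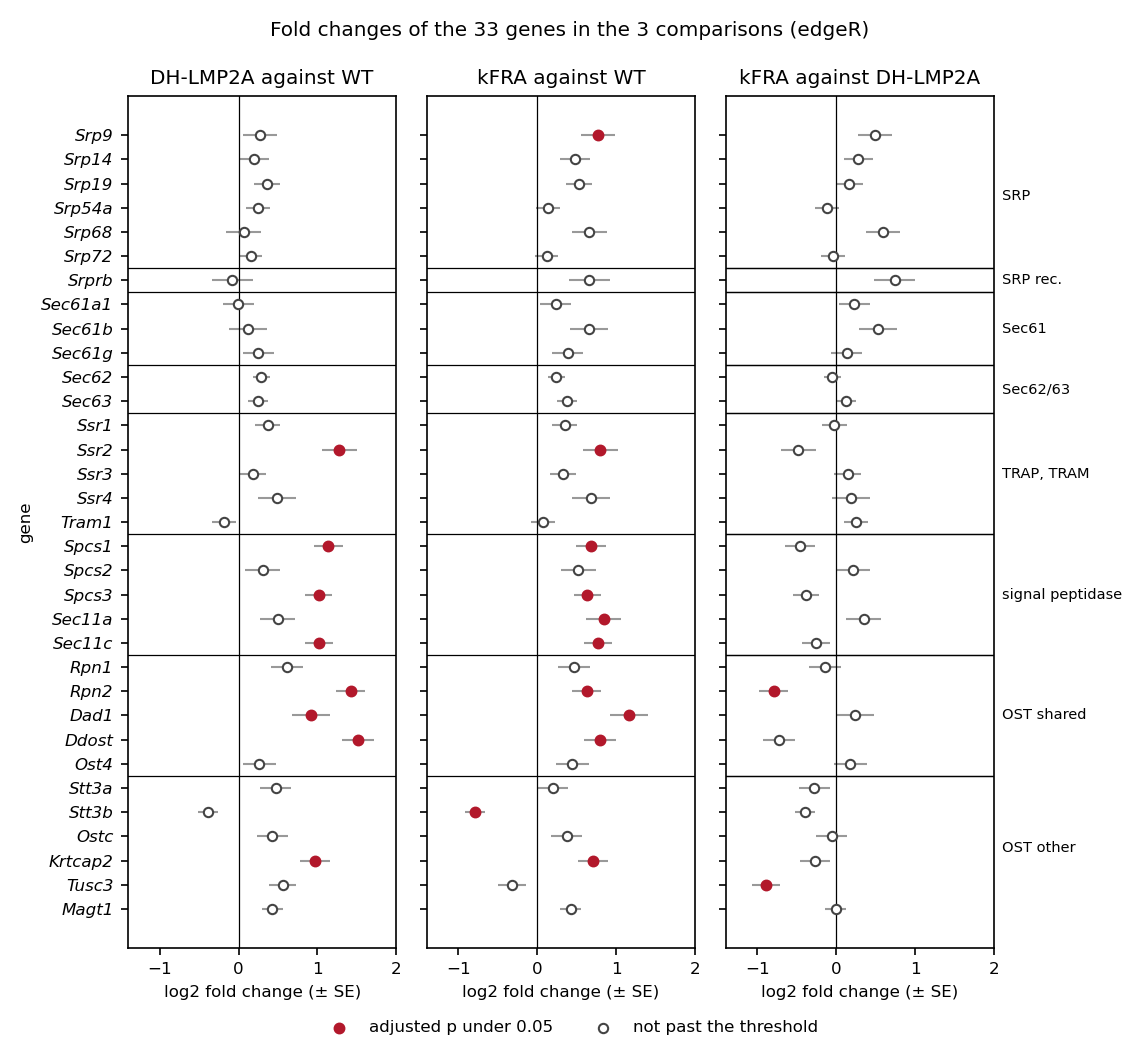
Log2 fold change of each of the 33 genes (points) with its SE (bars) in the 3 comparisons, filled where the adjusted p-value is under 0.05. In both comparisons with WT most points lie to the right of 0 with Stt3b to the left, and between kFRA and DH-LMP2A the points scatter around 0, with Rpn2 and Tusc3 filled on the left.

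The comparison of kFRA with DH-LMP2A asks what separates 2 genotypes that share a low heavy chain level. Of the 33 genes, 2 were lower in kFRA, Rpn2 and Tusc3 (3.3% of all genes were), and by edgeR's test 0 were higher (1.73% of all genes were). At an unadjusted p under 0.05, 3 of the 33 genes were higher (Srp9, Srp68 and Srprb), where 10.3% of all genes were, and 6 were lower, where 12.1% were. DESeq2's Wald test called 0 higher, where 4.16% of all genes were, and 3 lower (Rpn2, Ddost and Tusc3), where 5.74% were. Over the 33 genes the median log2 fold change was -0.0068, and over all genes it was -0.0049. Libraries did not overlap in 1 gene that was higher in kFRA, Srp68 (11.6% of all genes), and in 5 that were lower, Rpn2, Ddost, Ssr2, Stt3b and Tusc3 (13.9% of all genes). Without kFRA replicate 2, edgeR called 7 genes higher in kFRA (Srp9, Srp14, Srp68, Srprb, Sec61b, Sec11a and Dad1), and Rpn2 and Tusc3 remained lower. Without that library 11.7% of all genes were higher and 11% lower in this comparison.

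Of the 7 genes of the SRP and its receptor, Srp9 was the 1 that passed, in kFRA against WT. Srp9, which with Srp14 slows the ribosome during targeting, was at 117, 96.4 and 109 CPM in DH-LMP2A, 168, 104 and 185 CPM in kFRA and 79.4, 83.2 and 104 CPM in WT. kFRA replicates 1 and 3 stood above all other libraries, and replicate 2 lay among the DH-LMP2A and WT libraries. Srp9 had a log2 fold change of 0.78 ± 0.22 (SE) for kFRA against WT (adjusted p = 0.0367, edgeR, n = 3 per group) and 0.28 for DH-LMP2A against WT (adjusted p = 0.474). Without kFRA replicate 2 the former was 1.05 (adjusted p = 0.00291). Srp9 did not pass in kFRA against WT without kFRA replicate 1, kFRA replicate 3, WT replicate 1 or WT replicate 2. Srp68, which forms a pair with Srp72 in the body of the particle, was at 139, 122 and 121 CPM in DH-LMP2A, 221, 139 and 218 CPM in kFRA and 113, 98.7 and 155 CPM in WT. It passed in no comparison with all libraries. For kFRA against DH-LMP2A, Srp68 had a log2 fold change of 0.60 (adjusted p = 0.160, edgeR) and 0.85 without kFRA replicate 2 (adjusted p = 0.0203). Srp14, Srp19 (an assembly subunit), Srp72 and Srp54a (which binds the signal sequence) passed in no comparison, with log2 fold changes against WT of 0.12 to 0.53. Counts of Srp54a are uncertain, since Srp54b has a near-identical transcript and held 22921 counts, against 11706 of Srp54a, over the 9 libraries.

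Srprb, the subunit that anchors the SRP receptor in the membrane, showed the widest gap within kFRA. Its levels were 136 and 138 CPM in kFRA replicates 1 and 3 and 71.9 CPM in replicate 2. DH-LMP2A libraries had 73.7, 63.8 and 69.6 CPM and WT libraries 65.7, 58.7 and 94.4 CPM, so kFRA replicate 2 fell among both. The log2 fold change for kFRA against DH-LMP2A was 0.74 ± 0.26 (SE, adjusted p = 0.145, edgeR, n = 3 per group), and without kFRA replicate 2 it was 1.05 (adjusted p = 0.0105).

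None of the 3 channel genes passed in a comparison with all libraries. Sec61b, the small beta subunit, was at 158, 141 and 165 CPM in DH-LMP2A, 247, 154 and 270 CPM in kFRA and 118, 123 and 186 CPM in WT. As with Srprb, kFRA replicates 1 and 3 were above all other libraries and replicate 2 was not. For kFRA against DH-LMP2A, Sec61b had a log2 fold change of 0.53 (adjusted p = 0.229, edgeR) and 0.81 without kFRA replicate 2 (adjusted p = 0.0302). Sec61a1, the pore itself, had means of 531 ± 134 CPM in WT, 530.4 ± 49.0 CPM in DH-LMP2A and 623 ± 59.9 CPM in kFRA (SD, n = 3), which overlapped. The gamma subunit gene Sec61g had log2 fold changes of 0.13 to 0.38 over the 3 comparisons. Sec62 and Sec63, which help post-translational import and recruit the chaperone BiP to the channel, had log2 fold changes against WT of 0.24 to 0.38, none of which passed, though WT libraries lay below all others in both genes.

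Ssr2 was the TRAP gene that passed. TRAP sits beside the channel and helps some signal sequences enter it. Ssr2 was at 577, 417 and 445 CPM in DH-LMP2A, 349, 304 and 380.2 CPM in kFRA and 161, 168 and 264 CPM in WT. The 3 genotypes did not overlap, DH-LMP2A being the highest. The log2 fold change was 1.28 ± 0.23 (SE) for DH-LMP2A against WT (adjusted p = 0.00644, edgeR, n = 3 per group) and 0.80 ± 0.22 for kFRA against WT (adjusted p = 0.0377). The other TRAP genes, Ssr1, Ssr3 and Ssr4, and Tram1, a neighbour of the channel, passed in no comparison. Their log2 fold changes against WT ran from -0.19 (Tram1 in DH-LMP2A) to 0.68 (Ssr4 in kFRA).

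Signal peptidase genes were higher than in WT in 3 of 5 for DH-LMP2A and in 4 of 5 for kFRA. Spcs1, an accessory subunit, was at 413, 285 and 358 CPM in DH-LMP2A, 285, 227 and 256 CPM in kFRA and 136, 153 and 190 CPM in WT. Every WT library lay below every other library. Spcs1 had a log2 fold change of 1.14 ± 0.19 (SE) in DH-LMP2A (adjusted p = 0.00477, edgeR, n = 3 per group) and 0.68 ± 0.19 in kFRA (adjusted p = 0.0359). Spcs1 overlaps an exon of Glt8d1 on the opposite strand, which held 8859 counts against 45397 of Spcs1, and the strand setting of the counting is not given in the sources used here. Spcs3, a subunit that the enzyme needs for its activity, was at 539, 374 and 456 CPM in DH-LMP2A, 388, 319 and 342 CPM in kFRA and 209, 220.3 and 246 CPM in WT. WT libraries were again the lowest. The log2 fold change of Spcs3 was 1.02 ± 0.17 (SE) in DH-LMP2A (adjusted p = 0.00501, edgeR, n = 3 per group) and 0.64 ± 0.17 in kFRA (adjusted p = 0.0319). Spcs2, another accessory subunit, passed in no comparison and had log2 fold changes of 0.22 to 0.52.

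The catalytic subunits Sec11a and Sec11c stand in for each other in the enzyme, and they differed in level. Per kilobase of exon, Sec11c was at 285 ± 24.01 CPM in DH-LMP2A, 239 ± 35.2 in kFRA and 141 ± 18.4 in WT, and Sec11a at 12.01 ± 0.636, 15.3 ± 4.44 and 8.52 ± 1.55 (SD, n = 3). Sec11c was at 934, 796 and 910 CPM in DH-LMP2A, 755, 621 and 836 CPM in kFRA and 400.1, 401 and 499 CPM in WT, with WT below all other libraries. Sec11c had a log2 fold change of 1.02 ± 0.18 (SE) in DH-LMP2A (adjusted p = 0.0059, edgeR, n = 3 per group) and 0.77 ± 0.18 in kFRA (adjusted p = 0.0179). Sec11a was at 58.2, 52.3 and 55.7 CPM in DH-LMP2A, 79.1, 47.2 and 85.5 CPM in kFRA and 35.8, 34.6 and 47.6 CPM in WT. kFRA replicate 2 lay just below the highest WT library, and the log2 fold change was 0.84 ± 0.22 (SE) for kFRA against WT (adjusted p = 0.0292, edgeR, n = 3 per group). Without kFRA replicate 2 it was 1.13 (adjusted p = 0.00212). Sec11a did not pass in kFRA against WT without kFRA replicate 1, kFRA replicate 3, WT replicate 1 or WT replicate 2. The log2 ratio of Sec11a to Sec11c per kilobase was -4.57 ± 0.054 for DH-LMP2A, -4.05 ± 0.074 for WT and -4.00 ± 0.257 for kFRA (SD, n = 3). DH-LMP2A did not overlap either other genotype (exact permutation p = 0.1 in each case), and kFRA overlapped WT (exact permutation p = 0.8). That overlap came from kFRA replicate 2 alone, at -4.30, since replicates 1 and 3, at -3.84 and -3.87, lay above the WT libraries (-4.12 to -3.97), and without it the kFRA mean was 0.197 above that of WT rather than 0.049.

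**Figure D3:**
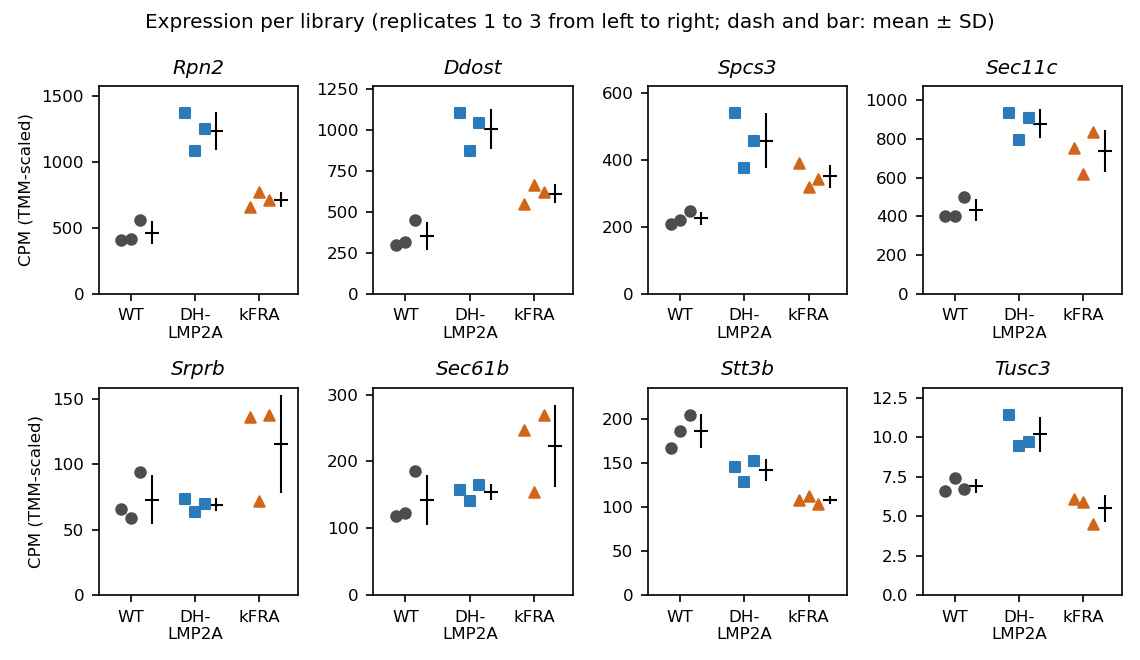
CPM of 8 genes in every library, with replicates 1 to 3 from left to right in each genotype and the mean ± SD beside them. The upper row shows genes with WT lowest, and the lower row shows Srprb and Sec61b, in which kFRA replicate 2 lies apart from the other kFRA libraries, Stt3b, with kFRA lowest, and Tusc3, with DH-LMP2A highest.

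Among the 33 genes, Ddost and Rpn2 of the OST core had the largest fold changes between DH-LMP2A and WT, and Dad1 had the largest between kFRA and WT. Ddost, a subunit common to every OST form (chr4:138304730-138312628, plus strand, 11 exon blocks, read as GRCm38), was at 1101, 869 and 1043 CPM in DH-LMP2A, 544, 662 and 622 CPM in kFRA and 295, 313 and 448 CPM in WT. The 3 genotypes did not overlap. Ddost was 2.85-fold higher in DH-LMP2A than in WT (log2 fold change 1.51 ± 0.20 (SE), adjusted p = 0.00174, edgeR, n = 3 per group) and 1.73-fold higher in kFRA than in WT (0.79 ± 0.20, adjusted p = 0.0263). For kFRA against DH-LMP2A its log2 fold change was -0.72 ± 0.20, which did not pass (adjusted p = 0.0782, edgeR), though DESeq2's Wald test called it.

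Rpn2, ribophorin II (chr2:157279017-157326319, plus strand, 23 exon blocks), was at 1368, 1084 and 1250 CPM in DH-LMP2A, 659, 769 and 707 CPM in kFRA and 409, 414 and 559 CPM in WT. Its genotypes did not overlap, and it was lower in kFRA than in DH-LMP2A, with a log2 fold change of -0.79 ± 0.18 (SE, adjusted p = 0.0414, edgeR, n = 3 per group). Against WT, the log2 fold change of Rpn2 was 1.42 ± 0.19 in DH-LMP2A (adjusted p = 0.00143, edgeR) and 0.63 ± 0.18 in kFRA (adjusted p = 0.0440). A 171-base stretch of Rpn2 matches a transcript of Trpc4ap, which held 22431 counts against 145080 of Rpn2. Rpn1, ribophorin I, which lies in the same shared core, had a log2 fold change of 0.61 in DH-LMP2A (adjusted p = 0.0851, edgeR) and 0.47 in kFRA (adjusted p = 0.134), and neither passed.

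Dad1, named for its defence against apoptotic death, was at 146, 131 and 154 CPM in DH-LMP2A, 195, 108 and 208 CPM in kFRA and 69.7, 66.4 and 91.6 CPM in WT. WT was below all other libraries, and kFRA replicate 2 was below all DH-LMP2A libraries. Dad1 had a log2 fold change of 1.17 ± 0.24 (SE) in kFRA (adjusted p = 0.0113, edgeR, n = 3 per group) and 0.92 ± 0.24 in DH-LMP2A (adjusted p = 0.0359). Without kFRA replicate 2 the value in kFRA was 1.47 (adjusted p = 0.000855). Ost4, a very small subunit, had log2 fold changes of 0.18 to 0.44, and none passed.

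The OST form built on Stt3a works on chains as they enter the channel, and the form built on Stt3b can act on chains that are already folding. Stt3b (chr9:115242607-115310421, minus strand, 16 exon blocks) was the only one of the 33 genes to be lower than in WT by the test. It was at 168, 187 and 206 CPM in WT, 146, 129 and 153 CPM in DH-LMP2A and 108, 113 and 104 CPM in kFRA. The 3 genotypes did not overlap, and kFRA was the lowest. The log2 fold change of Stt3b was -0.79 ± 0.13 (SE) in kFRA against WT (adjusted p = 0.00377, edgeR, n = 3 per group) and -0.39 in DH-LMP2A against WT (adjusted p = 0.0813). Stt3a was at 442, 319 and 367 CPM in DH-LMP2A, 350.3, 318 and 262 CPM in kFRA and 253, 230 and 330 CPM in WT, which overlapped, and it passed in no comparison. Per kilobase, the log2 ratio of Stt3a to Stt3b was -0.57 ± 0.204 for WT, 0.298 ± 0.183 for DH-LMP2A and 0.415 ± 0.182 for kFRA (SD, n = 3). All 3 WT libraries had a lower ratio than all 6 others (exact permutation p = 0.1 for each genotype against WT, the smallest possible). Where the ratio crosses 0 depends on the exon lengths used (8948 bases for Stt3a and 4195 for Stt3b), and in CPM without length Stt3a was above Stt3b in every library. Between kFRA and DH-LMP2A the ratios overlapped (exact permutation p = 0.5).

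Krtcap2 and Ostc link the Stt3a form to the channel. Krtcap2, whose promoter is shown above, was at 273, 210 and 244 CPM in DH-LMP2A, 214, 167 and 223 CPM in kFRA and 105, 113 and 152 CPM in WT. WT lay below all other libraries. Its log2 fold change was 0.98 ± 0.19 (SE) in DH-LMP2A (adjusted p = 0.0100, edgeR, n = 3 per group) and 0.71 ± 0.19 in kFRA (adjusted p = 0.0315). Ostc had log2 fold changes of 0.43 and 0.37 against WT, with neither passing.

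Tusc3 and Magt1 are the alternative oxidoreductase subunits of the Stt3b form. Tusc3 was the lowest of the 33 genes by CPM, at 11.4, 9.42 and 9.66 CPM in DH-LMP2A, 6.09, 5.90 and 4.52 CPM in kFRA and 6.58, 7.40 and 6.69 CPM in WT, which came from 72 to 270 counts per library. All kFRA libraries were below all WT libraries, and these were below all DH-LMP2A libraries. Tusc3 was lower in kFRA than in DH-LMP2A, with a log2 fold change of -0.88 ± 0.18 (SE, adjusted p = 0.0214, edgeR, n = 3 per group), and its log2 fold changes against WT of 0.56 in DH-LMP2A and -0.32 in kFRA did not pass. Magt1 had means of 122 ± 5.54 CPM for WT, 164 ± 23.0 CPM for DH-LMP2A and 163 ± 7.90 CPM for kFRA (SD, n = 3), with WT below all other libraries. It passed in no comparison (adjusted p = 0.0559 for kFRA and 0.068 for DH-LMP2A against WT, edgeR). The log2 ratio of Tusc3 to Magt1 per kilobase was -3.27 ± 0.283 for kFRA, -2.38 ± 0.068 for DH-LMP2A and -2.52 ± 0.158 for WT (SD, n = 3). kFRA overlapped neither other genotype (exact permutation p = 0.1 in both cases), and DH-LMP2A overlapped WT (exact permutation p = 0.3).

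**Figure D4:**
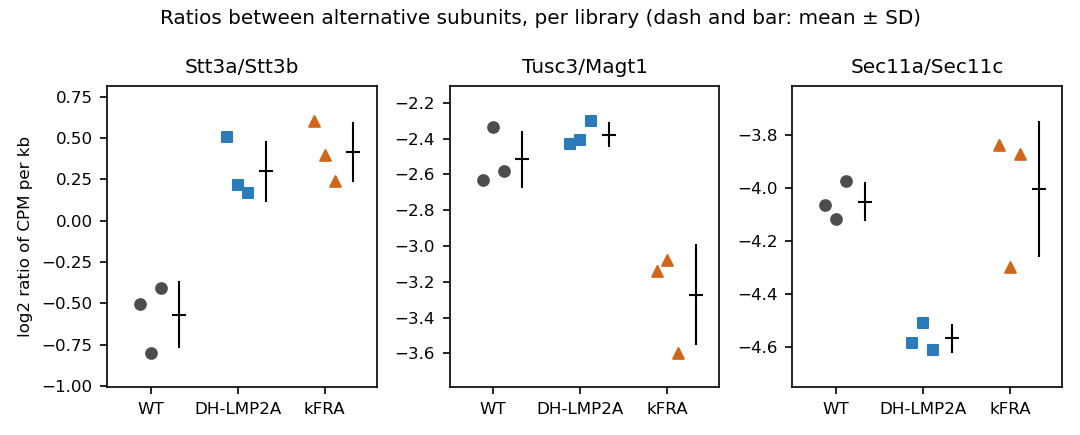
Log2 ratio of CPM per kilobase between subunits that stand in for each other (points, 1 per library; dash and bar, mean ± SD). The Stt3a to Stt3b ratio is lower in the 3 WT libraries than in the others, the Tusc3 to Magt1 ratio is lowest in kFRA, and the Sec11a to Sec11c ratio is lowest in DH-LMP2A.

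Subunits of 1 complex differed in level per kilobase as well as in fold change. In DH-LMP2A, Ddost was at 474 ± 57.0 CPM per kilobase, Rpn2 at 279 ± 32.3, Rpn1 at 178 ± 18.2, Ost4 at 74.8 ± 5.76 and Dad1 at 36.7 ± 3.01 (SD, n = 3). In WT the same genes were at 166 ± 39.5, 104 ± 19.3, 116 ± 27.9, 62.4 ± 13.2 and 19.4 ± 3.50 CPM per kilobase. Rpn2 was thus above Rpn1 in mean level in DH-LMP2A and below it in WT, where their spreads overlapped. The exon length is that of the merged exons in the table, so a long untranslated end lowers a gene's value. In all, 12 of the 33 genes overlap an exon of another gene, and 13 have a similar stretch in a transcript elsewhere, so their values are uncertain by the reads that may be shared. Beside the pairs named above, Ost4 overlaps Agbl5 (3755 counts against 16072), Krtcap2 overlaps Trim46 (880 against 33181) and Sec11a overlaps Nmb on the same strand (585 against 9365), while Srp9 resembles Gm13736 (1058 against 19659) and Magt1 shares short repeats with transcripts of 55 other genes.

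**Figure D5:**
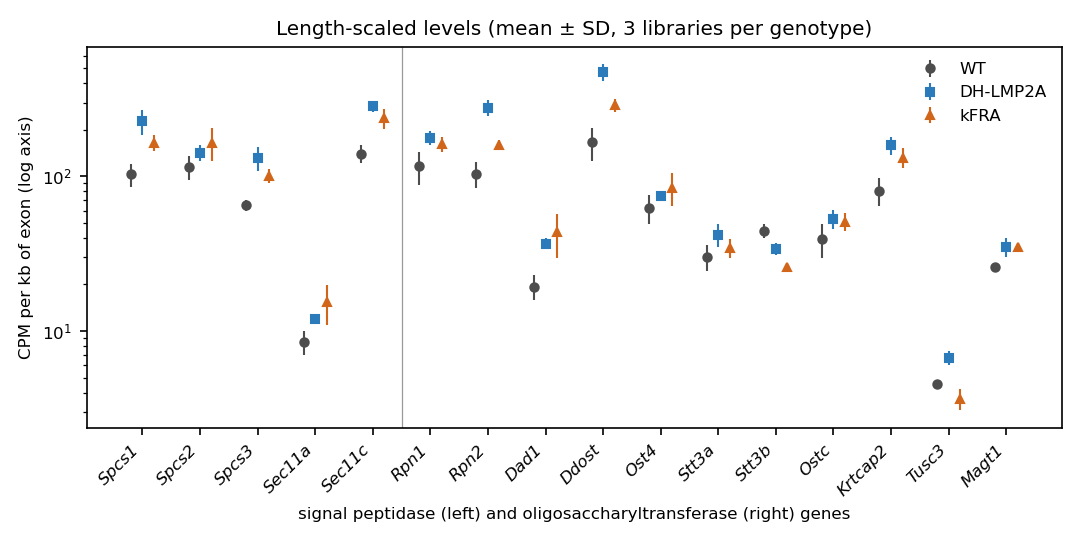
Mean CPM per kilobase of exon (log axis) with SD of the signal peptidase genes (left) and the OST genes (right) in the 3 genotypes. Ddost, Rpn2 and Sec11c are the most abundant per length in DH-LMP2A, and Tusc3 is the lowest in all 3 genotypes.

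Within each genotype the 33 genes tended to be high or low in the same library. Their level was the lowest of the 3 in DH-LMP2A replicate 2 for 29 genes (30.5% of all genes were), in kFRA replicate 2 for 26 genes (38.7% of all genes), and the highest of the 3 in WT replicate 3 for 30 genes (34% of all genes). kFRA replicate 2 differed from the mean of the other 2 kFRA libraries by a median log2 value of -0.29 over the 33 genes and 0.05 over all genes. The largest gaps were -0.93 for Srprb, -0.90 for Dad1, -0.80 for Sec11a, -0.77 for Srp9 and -0.75 for Sec61b, and the gap was positive for Stt3a, Stt3b, Tusc3, Rpn2, Ddost and Srp72. Acinar markers were high and the plasma cell marker sum low in that library, and their part in these gaps was not tested.

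The calls in DH-LMP2A rested less on single libraries than those in kFRA. With each library left out in turn, Ddost, Rpn2, Ssr2, Spcs1, Spcs3 and Sec11c passed in all 6 fits of DH-LMP2A against WT, Krtcap2 in 5 (not without DH-LMP2A replicate 1) and Dad1 in 1. For kFRA against WT, Stt3b passed in all 6 fits and Dad1 in 5 (not without WT replicate 2), while the other 9 genes passed in 2. The count of higher genes in that comparison was 1 without kFRA replicate 1, kFRA replicate 3 or WT replicate 1, 0 without WT replicate 2, 15 without WT replicate 3 and 21 without kFRA replicate 2. The share of all genes that were higher moved too, from 2.26% without WT replicate 2 to 4.66% without WT replicate 3 and 18.8% without kFRA replicate 2. Rpn2 and Tusc3 passed for kFRA against DH-LMP2A in 1 of 6 fits, that without kFRA replicate 2. With a covariate built from the B cell, T cell, myeloid and erythroid markers, which moved with genotype, 6 genes remained higher in DH-LMP2A than in WT (all but Dad1 and Krtcap2), 3 remained higher in kFRA than in WT (Sec11c, Dad1 and Ddost), Stt3b remained lower, and Rpn2 and Tusc3 no longer passed between kFRA and DH-LMP2A. The median log2 fold change of the 33 genes with this covariate was 0.43 for DH-LMP2A and 0.48 for kFRA against WT, against 0.36 and 0.48 without it, and the share of all genes called higher was 2.25% and 4.32%. The acinar markers moved with genotype too, their sum being 23.2 to 108.4 CPM in WT, 238 to 1096 CPM in DH-LMP2A and 67.9 to 1944 CPM in kFRA. With a covariate of these markers, 15 genes were higher in DH-LMP2A (2.63% of all genes were) and 21 in kFRA (8.94% of all genes) than in WT. Rpn2 was no longer among the latter.

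Of 55 genes of neighbouring steps, 6 were higher in kFRA than in WT (10.9%, against 6.68% of all genes) and 5 were higher in DH-LMP2A than in WT (9.09%, against 5.07%). Of 15 other targeting and translocation genes, Sil1, the nucleotide exchange factor of BiP, was the 1 that was higher than in WT. Its level was 253, 200 and 241 CPM in DH-LMP2A, 139, 122 and 161 CPM in kFRA and 64.9, 72.4 and 96.7 CPM in WT, and the genotypes did not overlap. The log2 fold change of Sil1 was 1.57 in DH-LMP2A (adjusted p = 0.000832, edgeR, n = 3 per group) and 0.85 in kFRA (adjusted p = 0.0141), while Srp54b (0.38 in kFRA and 0.29 in DH-LMP2A), Tmem208 (0.45 in kFRA) and Get4 (-0.26 in DH-LMP2A), next by p-value, did not pass. Of 16 genes of the ER membrane complex and the multipass translocon, which insert membrane proteins, Emc1 was higher in kFRA (0.50, adjusted p = 0.026, edgeR), and Emc1, Nomo1 and Emc10 were higher in DH-LMP2A (0.54, 0.77 and 0.75). Emc7 and Wdr83os, next by p-value in kFRA against WT, had 0.33 and 0.62 and did not pass. Of 24 genes that build the dolichol-linked sugar chain that OST transfers or that were listed with them, 4 were higher in kFRA than in WT (Alg12 at 0.66, Dpm3 at 1.01, Alg1 at 0.66 and Dpagt1 at 0.73, the last named after its value was seen) and 1, Dpm3 at 0.92, was higher in DH-LMP2A, where Alg12 at 0.36 and Tmem258 at 0.62 did not pass. By edgeR's test none of these 55 genes was lower than in WT, and none passed between kFRA and DH-LMP2A, where 16 had an unadjusted p under 0.05. Of the 16, 4 were lower in kFRA, and at that cutoff 10.3% of all genes were higher and 12.1% lower in that comparison. The smallest p-values there were those of Sil1 (-0.72), Dnajb9 (0.62) and Get4 (0.47), of Emc8 (0.32), Nomo1 (-0.55) and Wdr83os (0.68), and of Mpdu1 (0.44), Alg3 (0.57) and Dpm2 (0.47). Hspa5, which encodes BiP, was at 2244 ± 722 CPM on average for WT, 2308 ± 287 CPM for DH-LMP2A and 4151 ± 666 CPM for kFRA (SD, n = 3), with a log2 fold change of 0.89 for kFRA against WT (adjusted p = 0.0482, edgeR) and 0.04 for DH-LMP2A against WT (adjusted p = 0.949). For kFRA against DH-LMP2A, Hspa5 had a log2 fold change of 0.85, which did not pass (adjusted p = 0.111, edgeR). Xbp1, a transcription factor of secretory cells, passed in no comparison.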

How the data were processed

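RNA sequencing libraries of spleen CD138-positive cells from 9 mice were used, 3 per genotype, grouped by the genotype label. The authors deposited raw read counts per gene, in the column layout of featureCounts per the file headers, with merged exon lengths. The submitters' processing notes name STAR 2.4.0a, featureCounts, Subread 1.5.0-p3, DESeq2 and the builds mm10 and GRCm38. The kit was strand-specific per the labels' protocols. The strand setting of the counting and the treatment of reads with several matches are not given in the sources used here.

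Counts were tested with edgeR 4.0.16 (R 4.3.3) after filterByExpr and TMM scaling, in 1 quasi-likelihood fit of all 9 libraries with a coefficient per genotype. Tests were 2-sided, with Benjamini-Hochberg adjustment over 14199 genes and a threshold of 0.05. The SE is the size of the log2 fold change divided by the square root of F. Shares of raw counts, and log2 ratios of subunits in CPM per kilobase, were compared by exact permutation tests (Python 3.11.15, numpy 2.4.6, scipy 1.17.1). Log2 CPM values were taken with a prior count of 2. The count model was checked on simulated data. No 2 replicates agreed within sampling noise (chi-square per degree of freedom of 17.3 to 164), and p-values measure the spread between these mice.

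The 33 genes, the other gene lists and the markers were chosen with earlier results of these data known. All 33 are named, with the 3 genes of smallest p-value per comparison in each related list, Dpagt1, Hspa5 and Xbp1. Alternatives were DESeq2 1.42.0 (size factors and Wald test), library size alone, no filter, no immunoglobulin genes, a replicate block, marker covariates, only the genotypes compared, and leaving out libraries. Similar transcripts, of at least 75 bases at 97% identity, were found with BLAST+ 2.17.0 in GENCODE M21.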

Additional observations from a re-analysis of the deposited data

How the results depend on the processing

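The covariate of acinar markers, and leaving out kFRA replicate 2 and DH-LMP2A replicate 3 together, were chosen after seeing the data. The 10 genes higher in kFRA than in WT became 24 with library size alone (16.6% of all genes were higher), 5 with only the 2 genotypes compared (4.59%), 16 with DESeq2's Wald test (10.8%), 3 with the covariate of B cell, T cell, myeloid and erythroid markers (4.32%), 21 with the acinar covariate (8.94%) and 19 with both libraries left out (18.7%), and 0 to 21 with single libraries left out (2.26% to 18.8%). The 8 higher in DH-LMP2A than in WT became 24 with library size alone (14.5% of all genes were higher and 3.65% lower), 15 with the acinar covariate (2.63%) and 12 with the Wald test (7.21%), which also called 1 gene, Stt3b, lower (10.6%). The 2 genes lower in kFRA than in DH-LMP2A became 1 with DESeq2's size factors (3.2% of all genes were lower) or library size alone (2.54%). They also became 1 with only the 2 genotypes compared (2.62%) or both libraries left out (10.9%). They became 0 with the spleen marker covariate (1.23%), 3 with the Wald test (5.74%) and 0 to 2 with single libraries left out (1.71% to 11%). The genes higher there went from 0 to 5 with both left out (8.68%) and 0 to 7 with single libraries left out (up to 11.7%). Library size alone moved the median of all genes by 0.34 log2 (DH-LMP2A against WT), 0.21 (kFRA against WT) and -0.13 (the remaining pair), and with it the median of the 33 genes was 0.72, 0.68 and -0.15. The cause of these changes was not tested. Replicate numbers named different mice. The deviations of same-numbered libraries had correlations of -0.211 to 0.196 over all genes. Those of replicate 3 were positive in all 3 comparisons (0.122 to 0.162), and those of replicates 1 and 2 had both signs. With the replicate block, 8 genes were higher in DH-LMP2A than in WT (5.16% of all genes were). In kFRA 13 were higher (7% of all genes) and 1 lower (13.6%) than in WT, and 1 gene was lower in kFRA than in DH-LMP2A (3.27%). The log2 ratio of Sec11a to Sec11c, which differed by 0.049 between kFRA and WT, was -0.033 to 0.197 with a library left out. In 15 of 99 pairs of gene and comparison a log2 fold change of at most 0.187 in size, none past the threshold, changed sign. For kFRA against DH-LMP2A these were Ssr1 (0.007 with DESeq2's size factors and with DESeq2's Wald test, 0.015 without immunoglobulin genes, -0.077 to 0.192 with libraries left out), Magt1 (0.022 with DESeq2's size factors and with DESeq2's Wald test, 0.03 without immunoglobulin genes, -0.039 to 0.169 with libraries left out), Sec61g (-0.02 with library size alone, -0.009 to 0.345 with libraries left out), Sec63 (-0.023 with library size alone, -0.005 with the spleen marker covariate), Sec62 (-0.098 to 0.046 with libraries left out), Rpn1 (-0.198 to 0.044 with libraries left out), Ostc (-0.158 to 0.118 with libraries left out), Srp54a (-0.223 to 0.082 with libraries left out) and Srp72 (-0.09 to 0.102 with libraries left out). For kFRA against WT these were Tram1 (-0.018 to 0.241 with libraries left out). For DH-LMP2A against WT these were Sec61a1 (0.006 with DESeq2's size factors and with DESeq2's Wald test, 0.364 with library size alone, 0.019 with no filter on low counts, 0.011 without immunoglobulin genes and with the replicate block, 0.055 with the spleen marker covariate, 0.419 with the acinar covariate, -0.108 to 0.224 with libraries left out), Srprb (0.284 with library size alone, 0.054 with the spleen marker covariate, 0.597 with the acinar covariate, -0.215 to 0.149 with libraries left out), Tram1 (0.166 with library size alone, 0.14 with the acinar covariate), Srp68 (-0.069 to 0.271 with libraries left out) and Sec61b (0.00 to 0.358 with libraries left out). Depth limited Tusc3 most, with 72 counts in the library where it was lowest.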
